A study of Mus musculus with 5 samples.

Results

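The genes described are 33 genes of the oligodendrocyte lineage and of myelin, taken by symbol from a list that covers precursor, newly formed and mature cells, of 47729 genes in the table. All 33 were found by Ensembl identifier, and all had enough reads to be tested. The samples are right brain hemispheres of male mice of the inbred strain C57BL/6 at 5 months of age, 5 in number, each sequenced as 1 mRNA library. The samples form 1 group with no treatment, genotype or age to compare, so genes were compared within a brain and brains with each other. The samples are called animals here, although the labels leave unstated whether they came from separate mice. The p-values therefore reflect only the spread over 5 samples, which may be technical.

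Oligodendrocytes wrap axons of the central nervous system in myelin, a stacked membrane that insulates the axon and speeds conduction. They arise from precursor cells, which persist in the adult brain and carry receptors for platelet-derived growth factor. A precursor that leaves the cell cycle passes through a short premyelinating stage with its own receptors and enzymes and then turns on the structural proteins and lipid enzymes of myelin under a small set of transcription factors. In a whole hemisphere, fewer cells of a type and less RNA per cell cannot be told apart.

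The genes were grouped by role into 12 genes of myelin structure and surface, 2 connexins, 6 lipid and metabolic enzymes, 6 transcription factors, 3 genes of newly formed oligodendrocytes and 4 precursor genes. The first 3 groups hold 20 mature genes. Levels are given as RPKM, the number of reads divided by gene length in kilobases and by the depth of the same library, with the SD over the 5 animals after the ± sign (n = 5). Library depth ran from 13184234 to 15570064 counts, with the highest total in animal 4 and the lowest in animal 5. Animal 4 also stood apart in transcripts of the cerebellum and in some of the brainstem, whose values are given with the deviations of the groups. The reads carry no molecular identifiers, so several can come from 1 molecule and the depth bounds only the error of counting.

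The DNA just upstream of 5 genes is shown because these genes carry the main patterns below. Mag, Mog, Ermn and Cldn11 were each highest in animal 4, with Mag high in animal 1 too, and Pdgfra was not. The 5 genes were chosen after their values were seen. Each sequence is the 250 bases before a RefSeq transcript start on GRCm38.p6, read 5′ to 3′ on the gene's own strand, and capitals mark a match to a searched motif on either strand. Mag has other windows as well, and that at chr7:30914322-30914571 held no match. Mag encodes a sialic acid-binding surface protein on the membrane that faces the axon, Mog a surface protein of the outermost myelin layer, Ermn a cytoskeletal protein of myelinating cells, Cldn11 the tight junction protein of myelin, and Pdgfra the growth factor receptor of precursors.
Mag, chr7:30914923-30915172, minus strand: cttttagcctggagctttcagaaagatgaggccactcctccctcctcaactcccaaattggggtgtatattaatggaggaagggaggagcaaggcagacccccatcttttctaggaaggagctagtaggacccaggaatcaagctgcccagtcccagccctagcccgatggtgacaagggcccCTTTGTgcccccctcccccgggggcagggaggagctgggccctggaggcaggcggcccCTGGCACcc
Mog, chr17:37023399-37023648, minus strand: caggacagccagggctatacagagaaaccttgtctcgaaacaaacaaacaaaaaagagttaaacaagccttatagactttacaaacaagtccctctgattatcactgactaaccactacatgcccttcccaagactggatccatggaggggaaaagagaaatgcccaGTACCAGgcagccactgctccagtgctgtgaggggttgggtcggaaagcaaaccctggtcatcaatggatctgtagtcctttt
Ermn, chr2:58052865-58053114, minus strand: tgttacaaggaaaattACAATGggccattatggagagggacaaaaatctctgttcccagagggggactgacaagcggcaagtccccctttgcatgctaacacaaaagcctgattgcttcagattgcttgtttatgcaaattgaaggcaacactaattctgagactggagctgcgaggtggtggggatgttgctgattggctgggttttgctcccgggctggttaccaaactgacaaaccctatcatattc
Cldn11, chr3:31149670-31149919, plus strand: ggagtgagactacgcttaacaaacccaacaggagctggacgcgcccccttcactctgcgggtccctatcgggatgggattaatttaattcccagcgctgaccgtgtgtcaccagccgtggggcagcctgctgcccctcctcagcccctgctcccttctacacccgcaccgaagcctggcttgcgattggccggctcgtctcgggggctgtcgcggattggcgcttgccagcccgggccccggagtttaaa
Pdgfra, chr5:75152001-75152250, plus strand: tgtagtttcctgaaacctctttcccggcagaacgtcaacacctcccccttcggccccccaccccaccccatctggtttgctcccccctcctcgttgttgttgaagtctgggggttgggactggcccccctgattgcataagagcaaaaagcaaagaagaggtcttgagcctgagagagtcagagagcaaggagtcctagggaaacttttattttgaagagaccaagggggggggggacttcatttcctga

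Windows of this length were found in the RefSeq promoter table for 24 of the 33 genes, 17 of them mature. The motif ACAAAG, a core bound by SOX family factors such as the product of Sox10, lay in a window of 7 of the 24 genes (Mobp, Mag, Cnp, Opalin, Tspan2, Gjb1 and Apod), all of them mature. At least 1 window held it for 18.6% of all genes in the table. A second SOX core, ACAATG, lay near 5 of the 24 genes (Ermn, Hapln2, Gjb1, Olig2 and Enpp6), against 12.2% of all genes. The sequences CTGGCAC and CTGGTAC, the core recognised by the product of Myrf, were found for 4 of the 24 genes (Mog, Mag, Cnp and Hapln2), all of them mature, against 6.79% of all genes. The E-box CAGCTG, a kind of site bound by the OLIG proteins, was found for 3 of the 24 (Hapln2, Aspa and Lhfpl3), against 14.7%. None of the 4 searches matched in the printed windows of Cldn11 and Pdgfra, which says only that these letters are not in those windows. All motifs were searched on both strands, none contains another, and a match is a description of the DNA, not of binding.

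Among the structural genes, Mbp stood far above the rest. Mbp encodes the basic protein that holds the cytoplasmic faces of compact myelin together, and its level was 291, 275, 280, 336 and 257 RPKM in animals 1 to 5 (288 ± 29.7). Animal 4 was highest and animal 5 lowest. Mobp, another basic protein of compact myelin, read 115, 112, 117, 130 and 110 RPKM (117 ± 8.10). Cnp, the phosphodiesterase of the cytoplasmic channels of myelin, read 111, 111, 101, 117 and 106 RPKM (109 ± 5.89). In both genes animal 4 was again highest, by a small margin in Cnp. Exons of Cnp share 4.23% of their bases with Dnajc7 on the opposite strand, and the sources used here do not say whether the counting used strand.

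The surface and junction genes came next. Cldn11 (ENSMUSG00000037625) stood at 74.7, 74.7, 75.4, 89.0 and 74.4 RPKM (77.6 ± 6.37), so that 4 animals lay within 1.03-fold of each other after scaling and animal 4 stood above them. Mag (ENSMUSG00000036634) stood at 54.4, 50.8, 47.4, 57.8 and 47.3 RPKM (51.5 ± 4.57), with animals 4 and 1 high and animals 3 and 5 low. Mog (ENSMUSG00000076439) stood at 37.2, 37.6, 37.1, 44.1 and 38.7 RPKM (38.9 ± 2.96). As in Cldn11, the values outside animal 4 were close together. Mal, a proteolipid of membrane trafficking, reached 64.1 ± 4.21 RPKM with a range from 59.8 to 70.0, and Pllp, a protein of the same MARVEL family, 24.6 ± 1.90 with a range from 21.9 to 26.5. Of the exonic bases of Pllp, 54.2% lie under an annotated gene on the opposite strand, so its value is uncertain.

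Ermn (ENSMUSG00000026830) read 18.1, 16.8, 17.0, 22.5 and 17.7 RPKM (18.4 ± 2.33), again with animal 4 apart from the other 4. Opalin (ENSMUSG00000050121), a sialylated membrane protein of oligodendrocytes, read 11.3, 12.2, 8.24, 11.8 and 10.4 RPKM (10.8 ± 1.59). Its pattern differed from that of the other structural genes, with animal 2 highest and animal 3 well below the rest. Hapln2, a link protein of the matrix at nodes of Ranvier, read 13.9, 10.3, 11.8, 14.9 and 12.2 RPKM (12.6 ± 1.84), with animals 4 and 1 high and animal 2 low. Tspan2, a tetraspanin, lay at 27.5 ± 1.82 RPKM and ran from 24.8 to 29.2.

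Both genes of the connexins, the family of gap junction proteins, were among the scarcer mature genes. Gjb1 read 11.7, 11.7, 10.0, 13.2 and 10.6 RPKM (11.5 ± 1.24) and was highest in animal 4. Gjc3 read 5.01, 6.57, 5.29, 6.43 and 5.50 RPKM (5.76 ± 0.700), with animals 2 and 4 above the others.

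The 6 enzymes and carriers ranged widely in level. Qdpr, the reductase that regenerates tetrahydrobiopterin, stood at 79.5, 83.1, 81.8, 92.1 and 79.2 RPKM (83.2 ± 5.25). Car2, a carbonic anhydrase of oligodendrocytes, stood at 76.9, 75.8, 76.4, 87.4 and 70.1 RPKM (77.3 ± 6.28). Apod, a lipocalin that carries lipids, stood at 65.6, 59.9, 65.3, 67.9 and 58.0 RPKM (63.3 ± 4.16). In these 3 genes animal 4 was highest and animal 5 lowest, with animals 1 and 3 close behind animal 4 in Apod. Ugt8a, which makes the myelin lipid galactosylceramide, read 13.4, 13.2, 13.7, 17.4 and 14.8 RPKM (14.5 ± 1.73). Fa2h, which hydroxylates the fatty acids of such lipids, read 14.3, 13.4, 13.3, 15.5 and 11.3 RPKM (13.6 ± 1.54). Both were highest in animal 4, but animal 5 was second for Ugt8a and lowest for Fa2h. Aspa, which splits the acetate donor N-acetylaspartate, was the scarcest mature gene at 3.06, 3.80, 3.16, 4.21 and 3.08 RPKM (3.46 ± 0.516).

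Olig1 (ENSMUSG00000046160) was the most abundant of the 6 transcription factors. This basic helix-loop-helix factor read 53.8, 47.2, 51.5, 59.0 and 47.1 RPKM (51.7 ± 4.99), while its neighbour and paralog Olig2 read 11.9, 8.82, 11.0, 10.2 and 10.1 RPKM (10.4 ± 1.13). Olig2 was highest in animal 1 and below its own mean in animal 4, unlike Olig1. Sox10, which acts through the whole lineage, stood at 18.3, 17.3, 16.7, 19.2 and 15.0 RPKM (17.3 ± 1.60). Myrf, the membrane-bound factor that switches on myelin genes, stood at 11.3, 10.9, 10.6, 11.6 and 10.1 RPKM (10.9 ± 0.587), with all 5 animals within 1.15-fold. Among the homeodomain factors, Nkx6-2, a factor of myelinating cells, read 6.19, 6.24, 5.91, 6.80 and 4.18 RPKM (5.86 ± 0.997), with animal 5 well below the other 4. Exons of Inpp5a on the opposite strand cover 12.9% of those of Nkx6-2, with a mean count of 997 for Inpp5a against 160 for Nkx6-2. Nkx2-2, which acts at the onset of differentiation, read 1.69, 1.73, 1.20, 1.70 and 1.29 RPKM (1.52 ± 0.254), with animals 3 and 5 low, and its mean count of 62.6 was the smallest of the 33.

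The 3 genes of newly formed oligodendrocytes spanned a wide range. Bcas1, which marks early myelinating cells, stood at 45.0, 43.0, 41.2, 52.5 and 43.8 RPKM (45.1 ± 4.36), above Mog, and animal 4 was apart from the rest. Gpr17, a receptor of committed precursors, stood at 7.67, 9.10, 8.92, 8.95 and 8.29 RPKM (8.59 ± 0.601), with animals 2, 3 and 4 close together and animal 1 lowest. Enpp6, a choline phosphodiesterase of the premyelinating stage, stood at 1.22, 1.63, 1.16, 1.67 and 1.27 RPKM (1.39 ± 0.241). For Enpp6 animals 4 and 2 formed a higher pair and the other 3 a lower group.

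The 4 precursor genes lay close together in level and did not share an order of animals. Lhfpl3, a membrane protein enriched in precursors, read 8.60, 9.95, 9.29, 11.5 and 9.14 RPKM (9.69 ± 1.10), with animal 4 highest. Pdgfra (ENSMUSG00000029231) read 6.58, 7.52, 7.03, 6.61 and 8.26 RPKM (7.20 ± 0.705). Pdgfra was highest in animal 5 and lowest in animals 1 and 4, and it was the only gene of the 33 that was lowest in animal 4 after scaling. C1ql1, a secreted protein of the complement C1q family, read 7.81, 7.07, 6.55, 8.33 and 5.97 RPKM (7.15 ± 0.946), with animals 4 and 1 high and animal 5 low. Cspg4, the proteoglycan that marks precursors, read 4.21, 4.32, 4.05, 4.09 and 3.70 RPKM (4.07 ± 0.231) and varied little. Pdgfra and Cspg4 are also made by fibroblasts and mural cells of vessels, whose marker lists had mean deviations (defined below) of 0.106 and −0.022 on the log2 scale in animal 4 and of 0.096 and 0.057 in animal 5. The part of these cells in either gene was not tested.

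**Figure D1:**
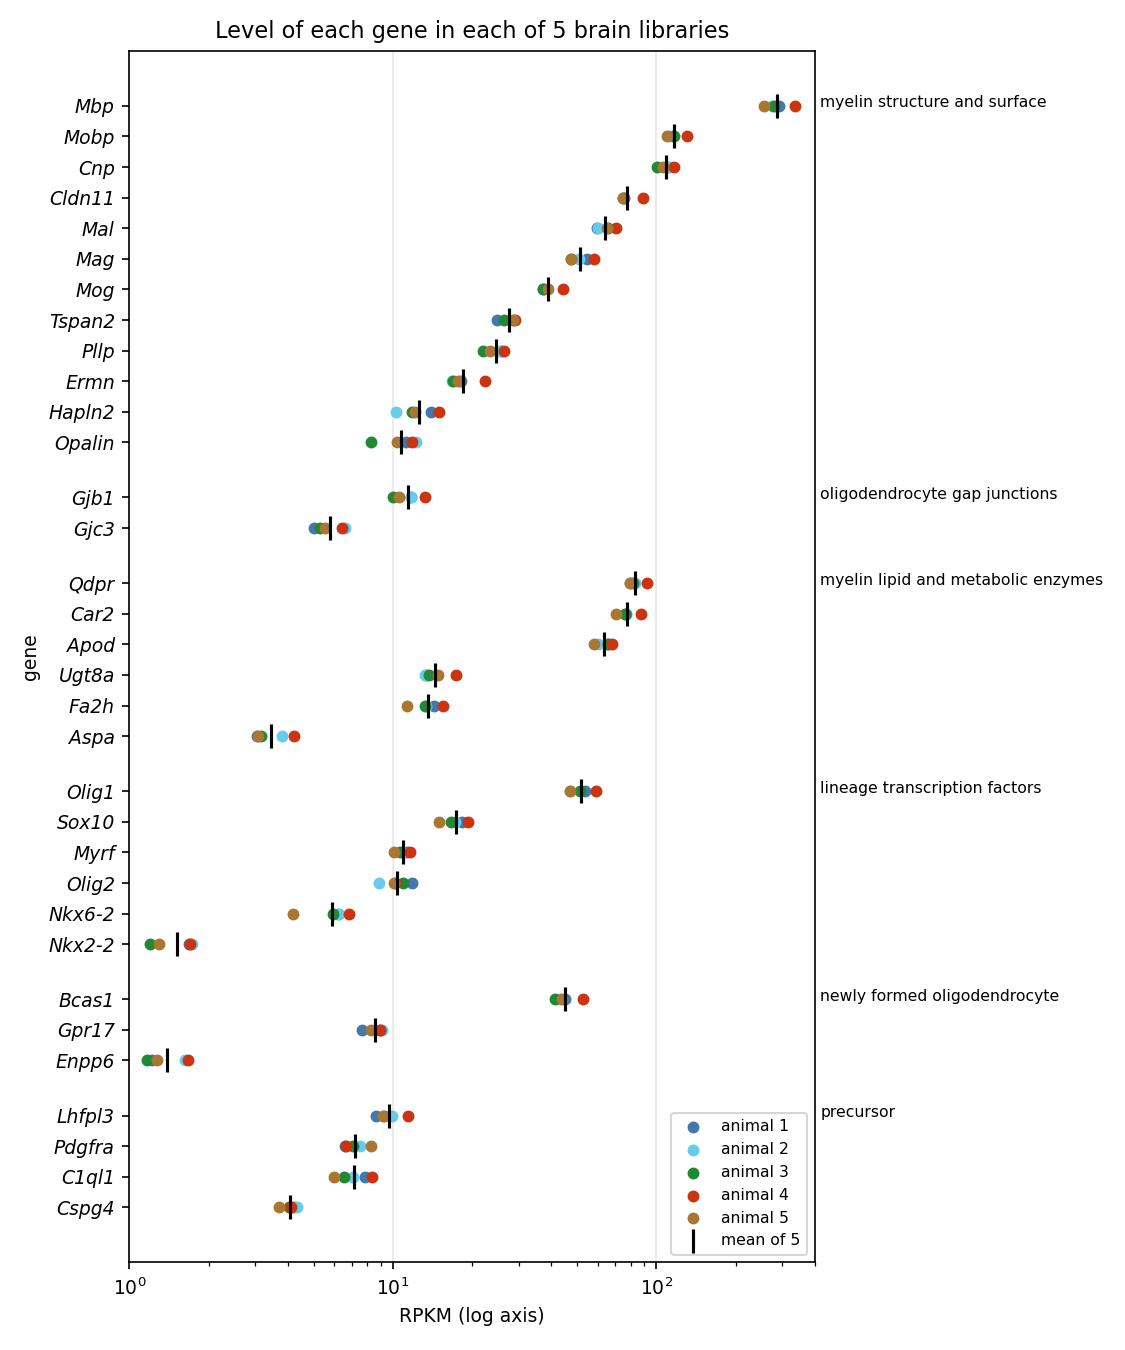
RPKM of the 33 genes on a log axis, grouped by role, with 1 point per animal and a bar at the mean of 5. Mbp leads at a mean of 288 RPKM, the 4 precursor genes lie between 4.07 and 9.69, and the points of animal 4 are at the right end for 26 of the 33 genes.

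By role, the median over genes was 45.2 RPKM for structure and surface, with means from 10.8 to 288. It was 38.9 for the enzymes (3.46 to 83.2), 10.6 for the transcription factors and 8.61 for the connexins. The median was 8.59 for the newly formed genes (1.39 to 45.1) and 7.17 for the precursor genes (4.07 to 9.69). The median of the 20 mature genes was 33.2 RPKM, but Aspa and Gjc3 lay below the precursor gene Pdgfra. Between neighbours in the order of levels, several steps did not hold in every animal. Cldn11 lay above Car2 in 2 of 5 animals, Olig1 above Mag in 2 of 5, Pdgfra above C1ql1 in 3 of 5, and Nkx6-2 above Gjc3 in 3 of 5.

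Ratios within a library compared stages without the differences in depth. Log2 ratios (after adding 0.1 to each RPKM) were formed for 20 pairs in each animal, and in 19 pairs the sign was shared by every animal. With 5 animals an exact two-sided sign-flip test cannot go below p = 0.063, which these 19 pairs reached (adjusted over 20 pairs, 0.0658), so no pair could pass a threshold of 0.05. Mature genes exceeded precursor genes in the 3 pairs that were set up for this: by 2.42 ± 0.19 for Mog over Pdgfra (5.35-fold), 3.63 ± 0.11 for Mag over Cspg4 (12.3-fold) and 3.58 ± 0.10 for Mobp over Lhfpl3. Mog over Pdgfra was highest in animal 4, at 2.72, and lowest in animal 5, at 2.21. Counted without gene length that ratio was −0.12, as the gene model of Pdgfra is longer, so its direction depends on the correction for length.

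Mature over newly formed ratios went both ways, with the mature gene lower only in the pair with Bcas1. The part of mature cells in the level of Bcas1 was not tested. Opalin exceeded Enpp6 by 2.87 ± 0.16 (7.30-fold) and Mog exceeded Gpr17 by 2.17 ± 0.12 (4.49-fold), whereas Ermn lay below Bcas1 by a log2 ratio of −1.29 ± 0.049. The ratio of Ermn to Bcas1 ran from −1.35 to −1.22, the narrowest range of the 20 pairs, although both genes differed between animals. Newly formed over precursor ratios were also mixed, with 3.43 ± 0.15 for Bcas1 over Cspg4, −2.29 ± 0.21 for Enpp6 over C1ql1 and 0.25 ± 0.16 for Gpr17 over Pdgfra. The last was 0.43 in animal 4 and 0.0052 in animal 5, where both genes were at almost the same level, and on counts without length it was −0.69.

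Partner and paralog pairs kept their order. Mbp exceeded Mobp by 1.30 ± 0.056 and the ratio of Cnp to Mbp was −1.40 ± 0.10. Mal exceeded Pllp by 1.38 ± 0.15, Olig1 exceeded Olig2 by 2.31 ± 0.15 (4.94-fold), and Nkx6-2 exceeded Nkx2-2 by 1.87 ± 0.22. Mog lay below Mag (−0.40 ± 0.097), Gjc3 below Gjb1 (−0.98 ± 0.15) and Myrf below Sox10 (−0.66 ± 0.059). The last 2 reversed on counts without length, to 0.36 and 0.99. For Aspa over Car2 the ratio was −4.45 ± 0.14, and for Pdgfra over Cspg4 it was 0.80 ± 0.20, with animal 5 highest at 1.14. Only the 2 enzymes of galactolipid synthesis had no fixed order, with Ugt8a above Fa2h in 3 of 5 animals (0.093 ± 0.19, exact sign-flip p = 0.375).

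**Figure D2:**
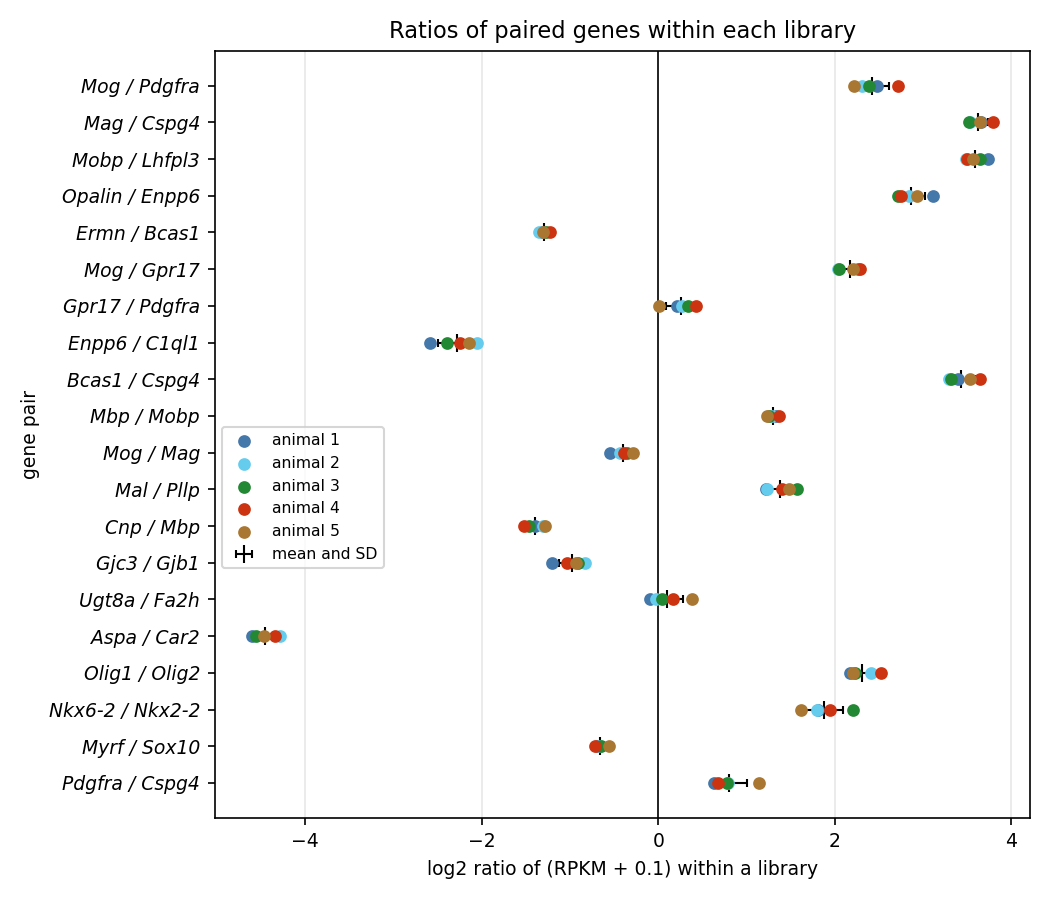
Log2 ratio of RPKM plus 0.1 for 20 gene pairs, with 1 point per animal and the mean with its SD over 5 animals. In 19 pairs all 5 points lie on 1 side of 0, and Ugt8a over Fa2h straddles it.

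Animal 4 stood above the other animals for most of the 33 genes. After scaling for depth and composition (TMM) and taking logs, 26 of 33 genes were highest in animal 4, against 20.9% of all 14770 genes tested. The 33 genes belong to 1 lineage and can vary together, so counts of them here and below are not counts of independent results. The 26 include 18 of the 20 mature genes, 4 of 6 transcription factors (Olig1, Sox10, Myrf and Nkx6-2), 2 of 3 newly formed genes (Bcas1 and Enpp6) and 2 of 4 precursor genes (Lhfpl3 and C1ql1). Opalin, Gjc3, Nkx2-2, Gpr17 and Cspg4 were highest in animal 2, Olig2 in animal 1 and Pdgfra in animal 5. Values above the gene's own mean in animal 4 were found for 31 of 33 genes, all 20 mature genes among them, against 50.9% of genes. The count of 26 was the same with DESeq2 size factors, with library totals and with a smaller prior count.

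The excess in animal 4 was small. Against the mean of the other 4 animals, RPKM in animal 4 was 1.29-fold for Ermn, 1.28-fold for Aspa and 1.27-fold for Enpp6. That ratio was 1.26-fold for Ugt8a, 1.24-fold for Hapln2 and for the precursor gene Lhfpl3, and 1.22-fold for Mbp. It was 1.09-fold for Cnp and 1.08-fold for Tspan2, at the low end of the mature genes, 0.977-fold for Olig2 and 0.900-fold for Pdgfra. Summed over the 20 mature genes, RPKM was 1106, 1082, 1077, 1253 and 1043 in animals 1 to 5. Animal 4 lay above the other 4 in this sum, which Mbp leads. Animal 5 was lowest for 12 of 33 genes, among them Mbp, Mag, Fa2h, Sox10 and Nkx6-2, against 23% of all genes.

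Averaged within a role, the mean deviation of log2 CPM (counts scaled to library depth) from each gene's own mean was positive in animal 4 for all 6 groups. It was 0.173 for structure and surface, 0.200 for the enzymes, 0.192 for the connexins, 0.189 for the newly formed genes, 0.139 for the transcription factors and 0.093 for the precursor genes. The 20 mature genes together stood at −0.0075, −0.029, −0.074, 0.183 and −0.073 in animals 1 to 5. The transcription factors had a second high value in animal 1 (0.118) and the lowest value of these groups in animal 5 (−0.190). Without Pdgfra and Cspg4, the precursor value in animal 4 was 0.239 in place of 0.093. That value rests on C1ql1 and Lhfpl3 alone, for which the part of other cells was not tested. These were the 2 precursor genes that were highest in animal 4. The 17 further precursor genes described below deviated there by 0.023.

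**Figure D3:**
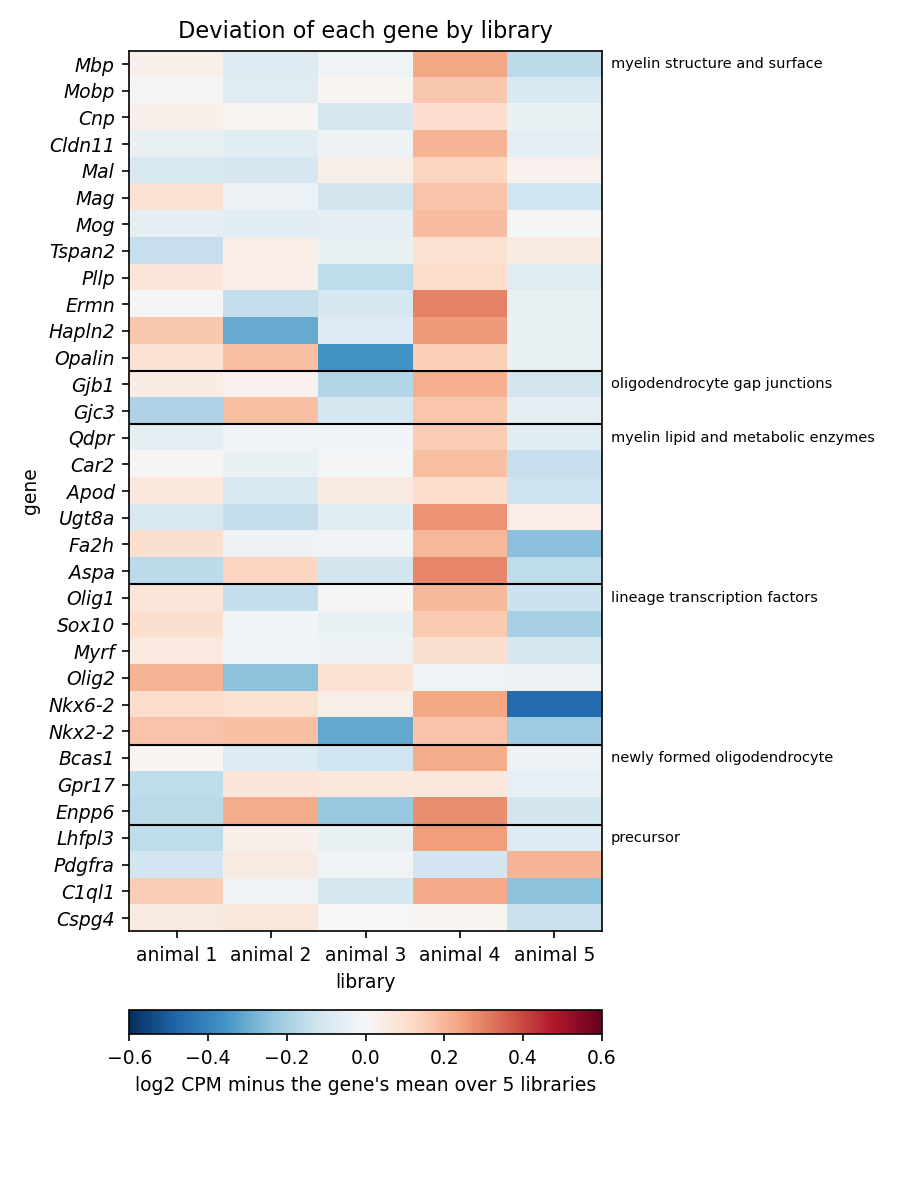
Deviation of log2 CPM from each gene's mean over 5 animals, 1 row per gene and 1 column per library, grouped by role, with red above and blue below the mean. The column of animal 4 is above the mean for 31 of 33 genes, the exceptions being Olig2 and Pdgfra.

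Other genes of the lineage, from longer lists that hold none of the 33, were compared by stage. Of 44 tested further genes of mature oligodendrocytes, 40 lay above their mean in animal 4 and 32 were highest there, with a mean deviation of 0.156. Plekhb1 stood at 111 RPKM in animal 4 against 93.2 to 99.5 in the others and Cryab, a small heat shock protein, at 80.1 against 59.2 to 63.6, whereas the list's most abundant genes Kif5a and Tubb4a, which neurons also express, and Enpp2 deviated by −0.018, 0.031 and 0.026. Of 13 further newly formed genes 8 lay above their mean in animal 4, with a mean deviation of 0.026, and of 17 further precursor genes also 8, with 0.023. Among the latter, Cspg5 stood at 30.0, 30.5, 28.7, 29.0 and 30.8 RPKM, with animal 4 inside the range of the others. No gene of these 3 lists was called more variable by the test described next, and at an unadjusted p under 0.05 there were 11 of 44, 1 of 13 and 1 of 17, against 5.43% of all genes.

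Lists of other cells and regions also deviated in animal 4. The 8 astrocyte genes had a mean deviation of 0.095 in animal 4, with 6 of 8 above their mean, and the 6 excitatory neuron genes −0.084, with 0 of 6 above. Striatal genes stood at −0.124 and cortical genes at −0.063 in that animal, and nuclear long RNAs at −0.097.

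Many markers of hindbrain tissue, but not all, were highest in animal 4 as well. The 6 cerebellar genes were each highest there, and those with enough reads to be tested (Calb1, Zic1 and En2) had a mean deviation of −0.157, 0.039, −0.153, 0.403 and −0.132 in animals 1 to 5. Gabra6, a receptor subunit of cerebellar granule cells, read 0.030, 0.027, 0, 1.65 and 0 RPKM, and Cbln3, a secreted protein of the same cells, read 0.095, 0.142, 0.060, 0.993 and 0.096 RPKM. Both were thus near 0 outside animal 4. The brainstem and spinal cord list, of which 3 of 8 genes had enough reads, stood at −0.671, 0.657, −0.017, 1.24 and −1.21. Of those 3 genes, 2 were highest in animal 4 and 1 in animal 2. Slc6a5, the glycine transporter of hindbrain neurons, read 0.436, 0.737, 0.381, 3.58 and 0.158 RPKM (edgeR adjusted p = 3.64e-07). Tph2, the gene highest in animal 2, read 0.389, 3.27, 1.74, 1.47 and 0.606 RPKM (edgeR adjusted p = 0.00179). The part of these cells and regions, and of depth, in the levels of the 33 genes was not tested. Schwann cell markers, which would mark nerve roots, were mixed, with a mean of 0.344 RPKM for Prx, 0.386 for Ncmap and 0 in every library for Pmp2, but 2.95 for Egr2 and 13.7 for Drp2, which other brain cells also express. Drp2 was lowest in animal 4, at 12.6 RPKM.

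**Figure D4:**
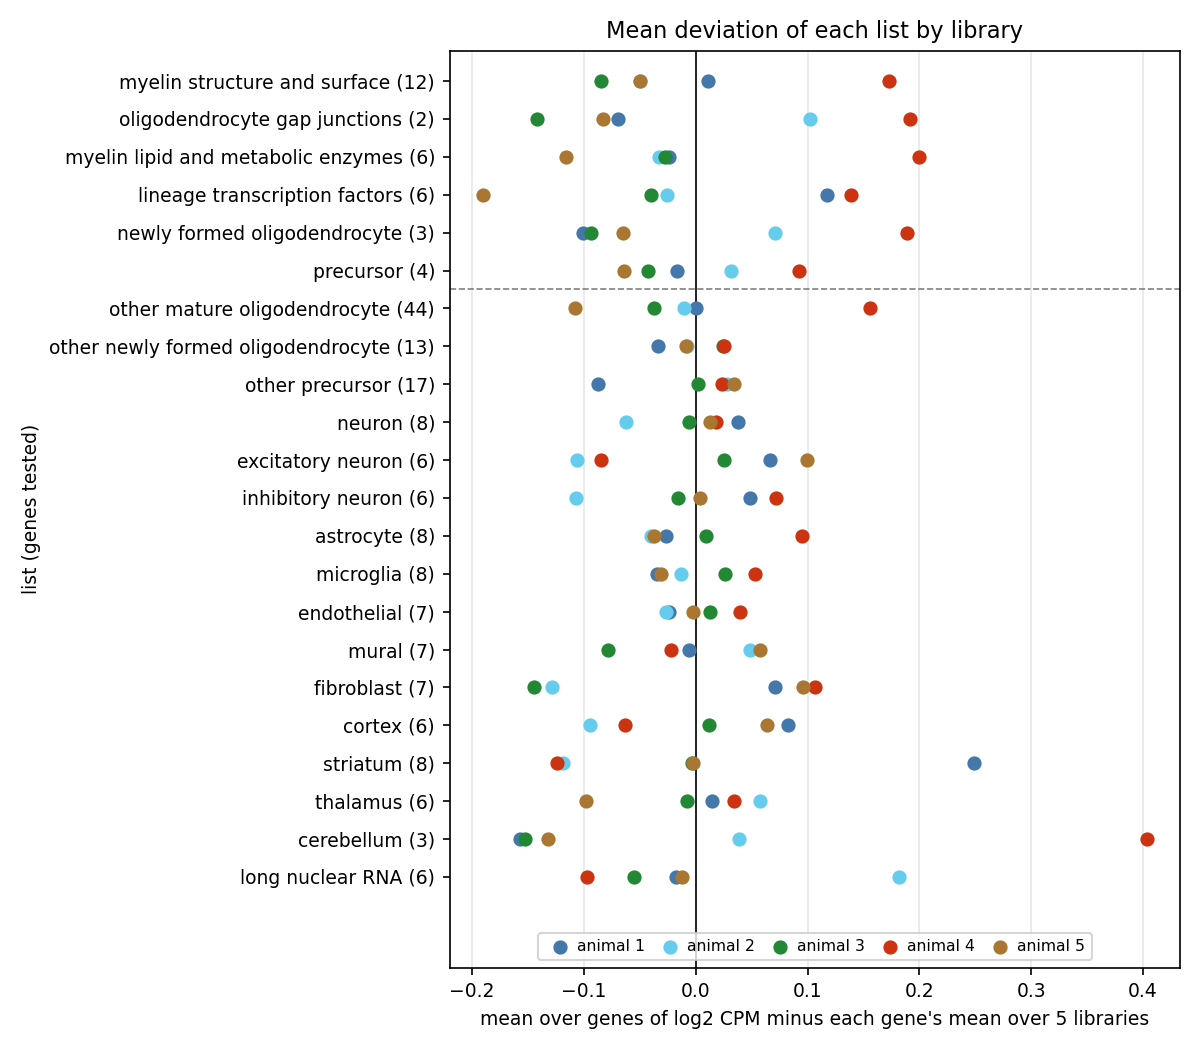
Mean deviation of log2 CPM in each library for the 6 roles (above the dashed line) and for lists of other genes and cells, with the number of genes tested in brackets. Animal 4 is rightmost for all 6 roles and for the 44 further mature genes, as it is for cerebellar, astrocyte, microglial, endothelial, fibroblast, inhibitory neuron and further newly formed genes, and it is among the lower libraries for excitatory neuron, cortical, striatal and nuclear RNA lists.

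The spread of each gene over the 5 animals was then set against that of genes of like abundance, with edgeR's quasi-likelihood dispersions. None of the 33 genes was called more variable at an adjusted p of 0.05 over all genes, where 0.305% of 14770 genes were, and none was called steadier, where 0% were. At an unadjusted p under 0.05 there were 15 of 33, against 5.43% of all genes. With no filter on low counts 4 were called (Mbp, Ermn, Hapln2 and Ugt8a), against 0.881% of genes. DESeq2's dispersion outliers held 1 of the 33 (Mbp), against 0.684% of all genes. With limma on recomputed RPKM none was called, against 0.0677%, and 11 were at an unadjusted p under 0.05, against 5%. The 15 were 7 of the 12 structure and surface genes, 4 of the 6 enzymes, the transcription factors Olig1 and Nkx6-2, Bcas1 and Pdgfra, with neither connexin among them. The smallest p-values were those of Mbp (edgeR adjusted p = 0.266) and Ermn (edgeR adjusted p = 0.347), followed by Hapln2 and Ugt8a with edgeR adjusted p-values of 0.413 and 0.437.

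A dispersion above the abundance trend was found for 32 of the 33 genes, against 43.4% of all genes, with Cspg4 the exception. The median log2 ratio to the trend was 1.53 for the 33 genes and 1.72 for the 20 mature genes, against −0.19 for all genes. This rested in large part on animal 4. Without it the count at an unadjusted p under 0.05 was 5 of 33, against 5.51% of all genes, and the median ratio was 0.57 for the 33 genes and 0.65 for the mature genes, against −0.28 for all genes. The 5 were Opalin, Hapln2, Olig2, Nkx6-2 and Pdgfra. Opalin and Olig2 had both their high and their low in other animals. After scaling, animal 4 was highest for Hapln2 and Nkx6-2 and lowest for Pdgfra. Mog, Cldn11 and Qdpr turned from above to far below the trend without animal 4, with log2 ratios of −2.77, −3.85 and −2.42. Among the 4 remaining animals, animal 1 was highest for 17 of 33 genes, animal 2 for 8, and animals 3 and 5 for 4 each.

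**Figure D5:**
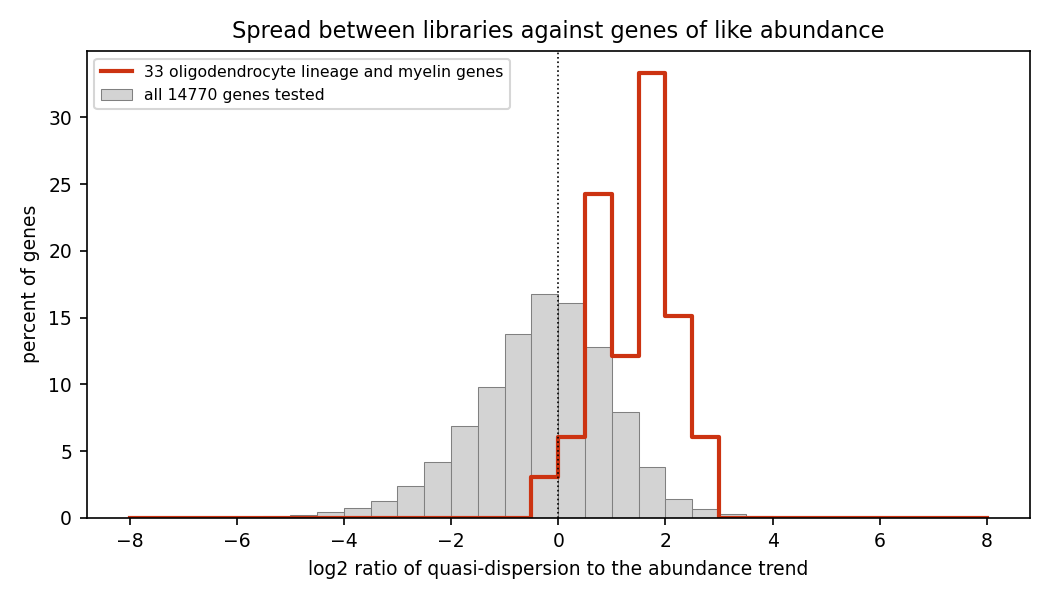
Distribution of the log2 ratio of each gene's quasi-dispersion to the abundance trend, as a percentage of genes, for the 33 genes (line) and all 14770 genes tested (bars). The 33 genes lie to the right, with a median of 1.53 against −0.19, and do not reach the far tail.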

How the data were processed

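Messenger RNA libraries of 5 hemispheres were counted per gene. The submitters' processing notes name CASAVA 1.7 and STAR 2.4.1d, with featureCounts 1.4.6-p4 and the build GRCm38. Neither the strand setting nor the treatment of multimapping reads is stated in the sources used here. Raw counts of 47729 genes make up the deposited count table. In the RPKM table that the authors deposited, library totals had been applied down the rows in turn. This rule recovered 100% of the entries with reads, given a gene length taken under the same rule from the gene's highest entry. Under it 80% of all entries had the total of a library other than their own. In 7363 genes at 5 RPKM or more, the length implied by a gene's entries was compared between rules. Its median coefficient of variation was 0.00178% under this rule, against 10.7% with own totals. RPKM values were recomputed here, using own totals and gene lengths recovered from both tables.

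Symbols came from GENCODE M21 by identifier (47310 genes matched; of 233 listed symbols 9630013A20Rik was not). The counts entered edgeR 4.0.16 (R 4.3.3) with filterByExpr, TMM scaling and a robust quasi-likelihood fit of an intercept, which left 14770 genes. The ratio of each gene's quasi-dispersion to the trend at its abundance was tested in both tails separately against an F distribution (4 and 15.3 degrees of freedom), and p-values were adjusted by Benjamini-Hochberg over these genes with a threshold of 0.05. Log2 CPM used a prior count of 2. Alternatives used DESeq2 1.42.0, limma 3.58.1, other scalings and filters, and leaving out each library. The test was tested on simulated data, where genes were changed in some samples. It called 46 of 67 genes changed 1.5-fold (68.7%) and all 67 changed 2-fold. Smaller changes were not simulated. All 33 genes are named, with the most abundant or called genes of other lists; Plekhb1, Cryab, Gabra6, Cbln3, Zic1, En2 and the Schwann cell markers (1 of them is not reported here) were added after their values were seen. The members, lists and pairs were chosen with earlier results of these data known.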

Additional observations from a re-analysis of the deposited data

Results flagged for a closer look

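In 60 sets of 5 values (the genes, the pair ratios and the deviations of the groups), the gap between an extreme library and its nearest neighbour was set against the whole range with Dixon's criterion (0.71 for 5 values). Chance gives about 1 such set in 20, or about 3 of 60, so the 4 found are near the number chance gives. In all 4 animal 4 was the high value. Cldn11, the tight junction gene of myelin, stood at 89 RPKM in animal 4 against 74.4 to 75.4 in the others. Ermn stood at 22.5 RPKM against 16.8 to 18.1, and Mog at 44.1 RPKM against 37.1 to 38.7. The mean log2 deviation of the 20 mature genes stood at 0.183 in animal 4 against −0.0735 to −0.00752. These 4 are not independent, since the 3 genes are part of the 20.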

How the results depend on the processing

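Over 20 alternatives, 781 of 831 recomputed values kept their direction and their side of the threshold or stayed within the spread of the main value. The number of genes called more variable was 45 and became 249 with no filter on low counts, 19 with a prior that is not robust, 101 by DESeq2's dispersion outliers, 10 with limma on recomputed RPKM and 27 with limma on deposited RPKM. It ran from 18 (without animal 5) to 44 with 1 library left out, with 26 without animal 3. Of the 33 genes 0 were called, also with each library left out (lowest 0, highest 0), but 4 with no filter (Mbp, Ermn, Hapln2 and Ugt8a, against 0.881% of genes) and 1 by DESeq2 (Mbp, against 0.684%). The cause was not tested. At an unadjusted p under 0.05 the count of 15 became 8 with limma on deposited RPKM (4.58% of all genes) and ran from 5 (without animal 4) to 17 with 1 library left out.

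The log2 ratio to the trend changed sign with some library left out for 17 genes. Over these 5 fits it ran from −0.29 to 1.43 for Tspan2, −0.997 to 0.87 for Gpr17, −0.26 to 1.26 for Pllp, −0.29 to 1.26 for Cnp, −0.38 to 2.40 for Opalin, −0.32 to 0.58 for Nkx2-2, −0.35 to 2.26 for Mobp, −2.77 to 1.63 for Mog, −3.85 to 2.21 for Cldn11, −0.64 to 3.08 for Ermn, −0.17 to 1.42 for Gjb1, −2.42 to 1.29 for Qdpr, −0.14 to 0.77 for Myrf, −0.33 to 2.85 for Bcas1, −2.61 to 0.042 for Cspg4, −0.54 to 1.99 for Lhfpl3 and −1.26 to 2.17 for Nkx6-2. By DESeq2 the sign reversed for Nkx2-2 (−0.998), Myrf (−0.38) and Gpr17 (−0.38). With limma on recomputed RPKM it reversed for Myrf (−0.079), and with limma on deposited RPKM for Mobp (−0.33), Mag (−0.0017), Cnp (−0.28), Olig2 (−0.28), Myrf (−1.18) and Pdgfra (−1.48). On counts without gene length the ratio was −0.12 for Mog over Pdgfra, −0.69 for Gpr17 over Pdgfra, 0.36 for Gjc3 over Gjb1 and 0.99 for Myrf over Sox10. Without Pdgfra and Cspg4, which other cells also express, the mean deviation of the precursor genes was 0.239 in animal 4 and −0.162 in animal 5, against 0.093 and −0.064. This leaves only C1ql1 and Lhfpl3, the 2 precursor genes that were highest in animal 4. The part of other cells in these 2 genes was not tested. The other values of the group deviations moved by less than their spread.

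No paired analysis was possible because the samples form 1 group. Genes with low counts, such as Nkx2-2 and Enpp6, carry the most counting error.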
